A study of Zea mays with 24 samples.

Results

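The transcripts described here are 37 probes for chloroplast and photosynthesis proteins among the 919 probes that the study lists as expressed in juvenile leaf and in no other tissue tested, out of 21939 maize probes on the array. They were selected on detection calls, which made that list, and on words in the product name (chloroplast, photosystem, chlorophyll, plastid, thylakoid, ribulose, rubisco, ferredoxin, plastocyanin or phosphoenolpyruvate), and several transcripts were then set aside by name. Detection in leaf of all 3 lines, and lack of detection in anthers and pollen, therefore chose these probes and are no finding here. Which line has more of each transcript was not used in the choice, and it is the question addressed below.

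The maize lines were A619 (a derivative of that inbred), ND101/W23 (a hybrid from W23 pollen on ND101 plants) and W23 (an inbred that carries the bz2 mutation and lacks anthocyanin). Plants of all lines were grown in the field in the same season, and each line gave 3 samples of juvenile leaf, 1 mm anthers, 1.5 mm anthers and mature pollen, 36 samples in all. Juvenile leaf samples came from fully expanded blades of different plants, and pollen was pooled within an individual. RNA of A619 or of ND101/W23 was hybridized with RNA of the same tissue of W23 on 2-colour arrays of 60-mer probes, 3 arrays for each of 8 comparisons. The study asked whether different maize lines express the same loci in an organ, and at like levels.

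Every value is a log2 ratio of the line over W23, so that -1 stands for a level in the line at 0.5 times that in W23. Each W23 sample was used on an array of A619 and on an array of ND101/W23 with the same replicate number, and the 2 comparisons are therefore not independent. On the leaf arrays 7888 to 7898 probes had a value, and over the 24 arrays the medians of all probes lay between -0.04 and 0.04. In leaf, replicate 3 had the dyes exchanged relative to replicates 1 and 2, so that dye orientation and replicate number cannot be told apart there. A ratio holds no level, so the leaf label could not be checked on these values beyond the choice of the probes. Precision is limited by the 3 arrays of a comparison. In whole leaves fewer cells of a type and less RNA per cell cannot be told apart.

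Photosynthesis depends on both genomes of the plant cell. The plastid genome encodes core subunits of the photosystems and of the plastid NADH dehydrogenase, while nuclear genes encode most other subunits, the enzymes of carbon fixation, the plastid ribosomal proteins and the machinery that imports and assembles them. Maize is a C4 plant, in which mesophyll chloroplasts make malate for bundle sheath chloroplasts, where Rubisco refixes the released CO2. By product name, 12 of the 37 probes belong to photosystems and electron transport, 9 to carbon fixation and carbon metabolism, 6 to the plastid ribosome and translation, 4 to pigments, tocopherol and plastid lipids, 3 to protein targeting and breakdown and 3 to nucleotides, amino acids and DNA repair. Of all 37, 5 match plastid genes (psaB, ycf3, psbB, the psbB-psbF-petB-petD cluster and ndhF) and 32 match nuclear genes. Names stand for similarity of an EST to a protein, and 1 match, to pyruvate kinase, is called weak by the study. The study's table of sense and antisense pairs places 2 of the probes on the sense strand (PsaB and adenylosuccinate synthetase) and 3 on the antisense strand (CP47, NADP-malate dehydrogenase and the L19-like protein), while 32 are not assigned. An antisense probe reads RNA of the strand opposite to the named coding sequence.

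Of the 37 probes, 34 had a value on all 6 leaf arrays. The other 3 had none: TC271141, similar to phosphoribulokinase, which regenerates the acceptor of CO2 in the Calvin cycle, TC259976, a triose phosphate translocator, and TC275893, similar to the protease SppA. In A619 leaf, 9 of the 34 transcripts fell and 1 rose relative to W23 (adjusted p under 0.05 from limma and the same sign on all 3 arrays), which is 29.4% called against 42.0% of all 7899 probes tested. By direction, 23.9% of all probes were called higher and 18.1% lower in A619. The median log2 ratio was -0.36 over the 34 transcripts, -0.19 over 829 other probes of the leaf-specific list and -0.03 over all probes. Of the 34 means, 26 lay below 0. In ND101/W23 leaf only 1 of the 34 transcripts was called, and it fell, which is 2.94% called against 10.3% of all probes (5.85% higher and 4.41% lower). The median was -0.07 over the 34 transcripts, -0.10 over the other leaf-specific probes and -0.01 over all probes. Of the 29 measured nuclear transcripts, 7 fell in A619 (median log2 ratio -0.34) and none was called in ND101/W23 (median -0.05). Of the 5 plastid-encoded transcripts, 1 rose and 2 fell in A619 (median -0.37) and 1 fell in ND101/W23 (median -0.47). By role, 5 of 12 photosystem transcripts (41.7%), 3 of 7 of carbon metabolism (42.9%), 1 of 4 of pigments and lipids and 1 of 6 of the plastid ribosome (16.7%) were called in A619, shares near or below the 42.0% of all probes. By Rank Products, the test that the study used, the Ycf3-like probe 20464 was the only one of the 34 called in A619, and 0 were called in ND101/W23. Over all probes Rank Products called 325 in A619 and 196 in ND101/W23, where limma called 3314 and 810. The shares from limma are therefore not to be read as the extent of difference that the study reported. At an unadjusted p under 0.05 from limma, 15 of the 34 transcripts differed in A619 and 11 in ND101/W23. Every call at the adjusted threshold passes this one too, so at least 42.0% and 10.3% of all probes did so.

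The same replicate number as a block, which takes out what the shared W23 sample adds to both lines, gave more calls in ND101/W23: 8 of the 34 transcripts (3 higher and 5 lower) against 24.3% of all probes (13.4% higher and 10.9% lower). In A619 it gave 14 (3 higher and 11 lower) against 50.3% of all probes (27.4% higher and 22.9% lower). For a line over W23 the block leaves the spread among the W23 samples out of the standard error. For TC260171 in A619 the standard error was 0.24 with the block and 0.697 without it. Block p-values of a line over W23, here and below, can therefore be too small. In A619 minus ND101/W23 the shared sample cancels, and this limit does not apply. Single replicates also moved the counts. In A619, 3 transcripts were called without replicate 1, 5 without replicate 2 and 16 (2 higher and 14 lower) without replicate 3, that is, on the arrays of 1 dye orientation. In ND101/W23 the counts were 0, 1 and 0, and the transcript called without replicate 2 was adenylosuccinate synthetase (TC261667), which was higher, and not the one called on all arrays. Over all probes the same omissions left 1616, 2606 and 2988 calls in A619, with 0, 79 and 447 calls in ND101/W23.

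**Figure D1:**
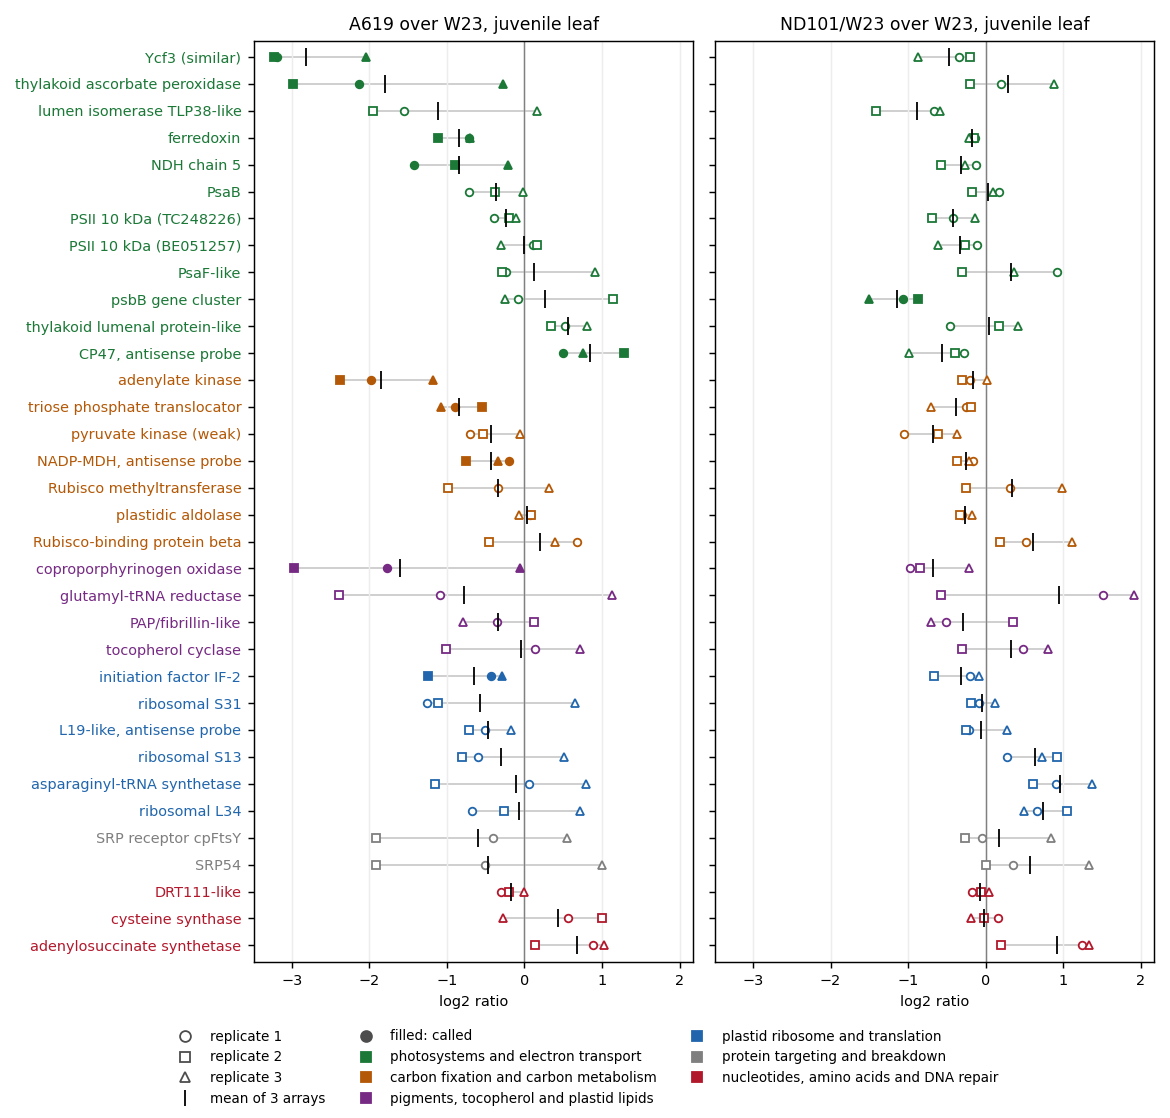
Log2 ratios over W23 (x axis) of 34 chloroplast and photosynthesis transcripts on each juvenile leaf array, A619 on the left and ND101/W23 on the right. Symbols are replicates, the tick is their mean, filled symbols mark transcripts called in that comparison and colours give the role; in A619, 9 called transcripts lie left of 0 and 1 right of it, and in ND101/W23 1 transcript is called.

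The photosystem transcripts held both the lowest and the highest mean ratio of the set in A619. Probe 20464, of a ZMtuc contig similar to Ycf3, a plastid-encoded factor that assembles photosystem I, was at -3.19, -3.23 and -2.05 in A619 and at -0.34, -0.20 and -0.87 in ND101/W23. All 3 values in A619 lay below all 3 in ND101/W23. It fell 7.08-fold in A619 relative to W23 (log2 ratio -2.82 ± 0.67, SD, n = 3, standard error 0.26, adjusted p = 0.000304). It was called without each replicate in turn (adjusted p = 0.0148, 0.00486 and 0.000414 without replicates 1, 2 and 3). In ND101/W23 its mean was -0.47 (adjusted p = 0.274).

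Another Ycf3 probe of the same leaf-specific list, TC251425, which was set aside by name, gave a different order of the lines. It was at -1.88, -0.86 and -1.54 in A619 and at -1.16, -1.44 and -1.96 in ND101/W23, so that the values of the lines overlap. It fell in both lines (log2 ratio -1.43, adjusted p = 0.00262 in A619, and -1.52, adjusted p = 0.0145 in ND101/W23), and the lines differed by 0.09 (standard error 0.32, adjusted p = 0.877). The difference between the lines at probe 20464 was -2.35 (standard error 0.36, adjusted p = 0.00617). The Ycf3 probes were not set against each other by a test.

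TC263487 lies on the antisense strand of psbB, the gene for the CP47 antenna protein of photosystem II. It was at 0.50, 1.29 and 0.75 in A619 and at -0.28, -0.40 and -0.99 in ND101/W23. It rose 1.80-fold in A619 (log2 ratio 0.85 ± 0.40, SD, n = 3, adjusted p = 0.0135) and was the only one of the 34 transcripts called higher there. Its mean in ND101/W23 was -0.56 (adjusted p = 0.124). Without replicate 1 or 2 its adjusted p in A619 was 0.0521 or 0.0825.

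Probe 3542, of a ZMtuc contig similar to a fragment of the plastid psbB-psbF-petB-petD cluster, which encodes subunits of photosystem II and of the cytochrome b6f complex, was the transcript called in ND101/W23. It was at -0.09, 1.14 and -0.25 in A619 and at -1.06, -0.87 and -1.50 in ND101/W23, where all 3 values lay below those of A619. It fell 2.21-fold in ND101/W23 relative to W23 (log2 ratio -1.14 ± 0.32, SD, n = 3, adjusted p = 0.0454), a call lost without replicate 1, 2 or 3 (adjusted p = 0.293, 0.0516 and 0.126). In A619 its mean was 0.27 (adjusted p = 0.469). Which gene and strand of the cluster the probe reads is not given. PsaB, the plastid-encoded core subunit of photosystem I (TC260531), was at -0.72, -0.38 and -0.02 in A619 and at 0.17, -0.17 and 0.09 in ND101/W23, and neither mean passed the test (adjusted p = 0.10 and 0.917).

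Probe 18364, of a ZMtuc contig similar to chain 5 of the plastid NADH dehydrogenase (ndhF), which returns electrons to the plastoquinone pool, fell 1.79-fold in A619. Its values were -1.43, -0.89 and -0.21 in A619, with -0.13, -0.57 and -0.27 in ND101/W23 (A619 mean -0.84 ± 0.61, SD, n = 3, adjusted p = 0.0223). Without replicate 1 or 2 the adjusted p was 0.183 or 0.0965. TC259449, ferredoxin, the soluble acceptor of electrons from photosystem I, fell by the same factor with less spread. It was at -0.72, -1.11 and -0.70 in A619 and at -0.14, -0.15 and -0.22 in ND101/W23 (A619 mean -0.84 ± 0.23, SD, n = 3, adjusted p = 0.00193), and the call held without each replicate (adjusted p 0.00962 to 0.0358) but not with Rank Products (adjusted p = 0.491).

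TC261348, a homologue of the thylakoid-bound ascorbate peroxidase, which removes hydrogen peroxide made at photosystem I, was at -2.14, -2.98 and -0.28 in A619 and at 0.20, -0.20 and 0.88 in ND101/W23. It fell 3.48-fold in A619 (log2 ratio -1.80 ± 1.38, SD, n = 3, adjusted p = 0.0206). Replicate 3, with exchanged dyes, was the value nearest to 0, and without it the mean was -2.56 (adjusted p = 0.0017), while without replicate 1 or 2 the adjusted p was 0.184 or 0.101. TC266263, similar to TLP38, a peptidyl-prolyl isomerase of the thylakoid lumen, was spread in the same way: -1.55, -1.96 and 0.16 in A619, with -0.66, -1.42 and -0.59 in ND101/W23. It was not called in A619 (mean -1.12, adjusted p = 0.0565) and was called in ND101/W23 with the replicate block (mean -0.89, adjusted p = 0.0403, against 0.185 without it).

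The remaining 4 photosystem transcripts had means of -0.23 to 0.56 in A619 and -0.42 to 0.33 in ND101/W23, and none was called. TC248243, similar to PsaF, the subunit of photosystem I that docks plastocyanin, was at -0.24, -0.29 and 0.91 in A619 and at 0.92, -0.30 and 0.37 in ND101/W23. The study lists another probe of this EST, which was at 0.20, 0.71 and 1.21 in A619 (mean 0.71, adjusted p = 0.0289) and at 0.29, -0.22 and 0.05 in ND101/W23.

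Of the probes similar to the PSII 10 kDa polypeptide, TC248226 was at -0.39, -0.20 and -0.11 in A619 and at -0.42, -0.69 and -0.14 in ND101/W23, and BE051257 at 0.11, 0.16 and -0.30 in A619 and at -0.11, -0.26 and -0.61 in ND101/W23. Of these, TC248226 was called lower in ND101/W23 with the replicate block (mean -0.42, adjusted p = 0.0477, against 0.108 without it). TC264834, a homologue of a thylakoid lumenal protein, was at 0.52, 0.34 and 0.81 in A619 and at -0.46, 0.17 and 0.42 in ND101/W23. In A619 it passed the test with the block (mean 0.56, adjusted p = 0.0187, against 0.0507 without it).

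Among the transcripts of carbon fixation and carbon metabolism, 3 of 7 measured fell in A619 and none rose (42.9% called, beside 42.0% of all probes). Probe 3237, of a ZMtuc contig similar to a chloroplast adenylate kinase, which in C4 leaves recycles the AMP made when pyruvate is activated, was at -1.98, -2.38 and -1.18 in A619 and at -0.20, -0.31 and 0.02 in ND101/W23. All values in A619 lay below those in ND101/W23. It fell 3.60-fold in A619 (log2 ratio -1.85 ± 0.61, SD, n = 3, adjusted p = 0.000815) and was called without each replicate (adjusted p 0.00107 to 0.0287) but not with Rank Products (adjusted p = 0.123).

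Probe 1701, of a ZMtuc contig similar to the triose phosphate/phosphate translocator, which exports the product of the Calvin cycle from the chloroplast, fell 1.79-fold in A619. Its values were -0.89, -0.55 and -1.08 in A619, with -0.25, -0.19 and -0.71 in ND101/W23 (A619 mean -0.84 ± 0.27, SD, n = 3, adjusted p = 0.00533, and 0.0792 without replicate 1). In ND101/W23 its mean of -0.38 was called with the block (adjusted p = 0.0442, against 0.166 without it). TC271033, on the antisense strand of NADP-malate dehydrogenase, the mesophyll enzyme that makes malate, was at -0.20, -0.75 and -0.34 in A619 and at -0.16, -0.37 and -0.22 in ND101/W23. It fell 1.35-fold in A619 (log2 ratio -0.43 ± 0.29, SD, n = 3, adjusted p = 0.0437), a call lost without replicate 1, 2 or 3 (adjusted p = 0.12, 0.207 and 0.105).

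The other 4 measured transcripts of this role were not called. TC262056, with the weak match to pyruvate kinase of glycolysis, was at -0.70, -0.53 and -0.06 in A619 and at -1.05, -0.62 and -0.37 in ND101/W23, below 0 on all 6 arrays. With the replicate block it was called lower in both lines (adjusted p = 0.015 in A619, against 0.096 without the block, and 0.00932 in ND101/W23, against 0.0595). TC270802, a plastidic aldolase of the Calvin cycle, had the least spread of the role: 0.07, 0.09 and -0.07 in A619, with -0.30, -0.33 and -0.18 in ND101/W23.

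The 2 transcripts for proteins that act on Rubisco itself were high in replicate 3 of ND101/W23. TC249580, similar to the beta subunit of the chaperonin that folds Rubisco, was at 0.68, -0.46 and 0.39 in A619 and at 0.52, 0.19 and 1.12 in ND101/W23, where it was called higher with the block (mean 0.61, adjusted p = 0.0368, against 0.17 without it). TC272687, similar to the methyltransferase of the Rubisco small subunit, was at -0.34, -0.99 and 0.32 in A619 and at 0.31, -0.25 and 0.98 in ND101/W23.

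Of the 4 transcripts for pigments, tocopherol and plastid lipids, 1 fell in A619. TC250591, a homologue of coproporphyrinogen oxidase, an enzyme on the way to haem and chlorophyll, was at -1.77, -2.97 and -0.06 in A619 and at -0.98, -0.85 and -0.22 in ND101/W23. It fell 3.03-fold in A619 (log2 ratio -1.60 ± 1.46, SD, n = 3, adjusted p = 0.0345). Without replicate 1 or 2 the adjusted p was 0.217 or 0.165, and without replicate 3 the mean was -2.37 (adjusted p = 0.00329). TC260171, a homologue of glutamyl-tRNA reductase, which commits glutamate to tetrapyrroles, had the widest spread of the 34: -1.09, -2.39 and 1.13 in A619, with 1.51, -0.57 and 1.92 in ND101/W23. Neither mean was called (-0.78, adjusted p = 0.402, in A619 and 0.95, adjusted p = 0.405, in ND101/W23). TC274842, tocopherol cyclase, known in maize as sucrose export defective1, and AI977864, similar to a plastid lipid associated protein (PAP/fibrillin), had means of -0.05 and -0.34 in A619, with 0.33 and -0.29 in ND101/W23, and were not called.

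All 6 transcripts of the plastid ribosome and translation had a mean below 0 in A619, at -0.65 to -0.07, and 1 was called. TC250540, similar to the chloroplast translation initiation factor 2, was at -0.43, -1.24 and -0.29 in A619 and at -0.20, -0.67 and -0.08 in ND101/W23. It fell 1.57-fold in A619 (log2 ratio -0.65 ± 0.51, SD, n = 3, adjusted p = 0.0444), with an adjusted p of 0.161 without replicate 1 and 0.12 without replicate 2. The antisense probe of the L19-like ribosomal protein (TC260315) was at -0.51, -0.72 and -0.18 in A619 and was called there with the block (adjusted p = 0.00964, against 0.0512 without it).

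In ND101/W23, 3 of these 6 means lay above 0. TC271589, similar to an organellar asparaginyl-tRNA synthetase, was at 0.06, -1.16 and 0.79 in A619 and at 0.91, 0.61 and 1.37 in ND101/W23. It was called higher in ND101/W23 with the replicate block (mean 0.96, adjusted p = 0.0165, against 0.122 without it). The 3 small and large subunit proteins TC271001 (S13), TC270374 (L34) and TC271187 (S31, a plastid-specific ribosomal protein) had means of -0.30, -0.07 and -0.58 in A619 and of 0.64, 0.74 and -0.05 in ND101/W23, and none was called in either line.

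The chloroplast signal recognition particle hands light-harvesting proteins to the thylakoid membrane, and both of its measured transcripts were spread over more than 2 log2 units in A619. TC274732, its receptor cpFtsY, was at -0.41, -1.92 and 0.55 in A619 and at -0.05, -0.27 and 0.85 in ND101/W23. AI977909, similar to its SRP54 subunit, was at -0.51, -1.91 and 1.00 in A619 and at 0.35, 0.01 and 1.34 in ND101/W23. In both lines replicate 2 was the lowest value and replicate 3 the highest for each of them, and no mean was called.

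The 3 transcripts for nucleotides, amino acids and DNA repair were not called in either line. TC261667, adenylosuccinate synthetase of AMP synthesis, was above 0 on all 6 arrays, at 0.89, 0.13 and 1.03 in A619 and at 1.25, 0.20 and 1.33 in ND101/W23. With the replicate block it was called higher in both lines (adjusted p = 0.00278 in A619, against 0.0793 without the block, and 0.00489 in ND101/W23, against 0.0742). It is the only one of the 37 that the study also lists as specific to 1 mm anthers. TC249767, a plastidic cysteine synthase, and TC251277, similar to the Arabidopsis DNA damage toleration protein DRT111, had means of 0.43 and -0.17 in A619, with -0.02 and -0.07 in ND101/W23.

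The replicates of a line varied more for these transcripts than for most probes, chiefly in A619. The SD over 3 arrays had a median of 0.61 in A619 and 0.34 in ND101/W23, beside 0.28 and 0.24 over all probes and 0.27 and 0.22 over the other leaf-specific probes. The order of the replicates was also shared. Replicate 3 held the highest of the 3 values for 25 of 34 transcripts (73.5%) in A619, beside 35.4% of all probes. In ND101/W23 it held the highest value for 20 (58.8%), beside 31.3% of all probes. Replicate 2 held the lowest value for 20 transcripts (58.8%) in each line, beside 31.8% of all probes in A619 and 33.5% in ND101/W23. Since the lines share each W23 sample, their orders are not separate evidence, and the part of W23 sample, dye and plant in this order was not tested.

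By array, the median of the 34 transcripts was -0.42, -0.74 and -0.04 in replicates 1, 2 and 3 of A619 and -0.14, -0.25 and 0.03 in those of ND101/W23. The other leaf-specific probes had medians of -0.21, -0.13 and -0.17 in A619, with -0.10, -0.08 and -0.13 in ND101/W23. These do not set replicate 3 apart. The order held for the nuclear transcripts, of which 22 of 29 were highest in replicate 3 of A619 and 20 of 29 in that of ND101/W23. Of the 5 plastid-encoded transcripts 3 were highest there in A619 and 0 in ND101/W23, where 3 were lowest there.

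**Figure D2:**
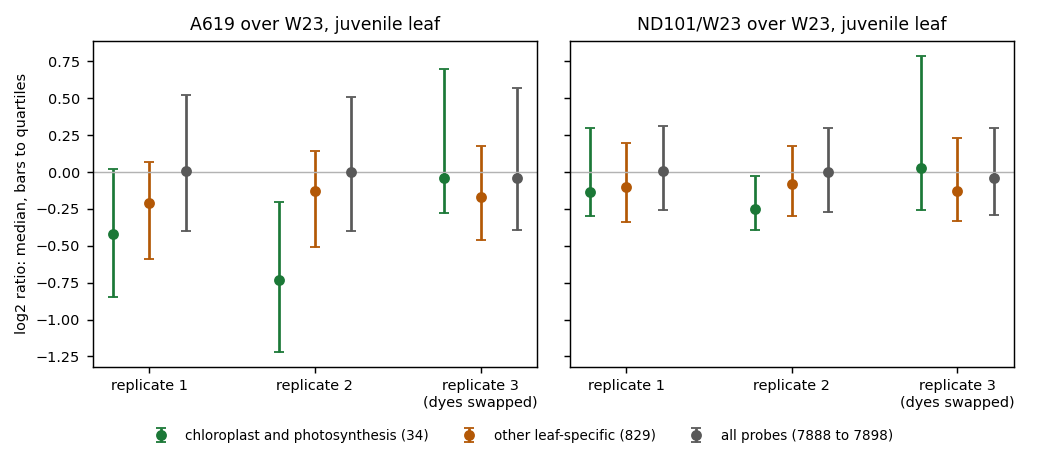
Median log2 ratio over W23 (y axis, bars from the lower to the upper quartile over probes) on each juvenile leaf array, A619 left and ND101/W23 right, for the 34 chloroplast and photosynthesis transcripts, 829 other leaf-specific probes and all probes. The medians of the 34 transcripts are -0.42, -0.74 and -0.04 on the A619 arrays and -0.14, -0.25 and 0.03 on the ND101/W23 arrays, while those of all probes stay within 0.04 of 0.

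Lists of transcripts of other tissues also moved in these leaf arrays. The 330 measured pollen-specific probes had a median of -0.21 in A619 and -0.19 in ND101/W23, and their median was -0.46 and -0.40 on replicate 3 of these lines, against -0.08 to -0.01 on the other arrays. The 1 mm and 1.5 mm anther-specific probes had medians of 0.21 and 0.12 in A619, with 0.08 and 0.05 in ND101/W23. These lists rest on detection calls of these very samples, with no detection in leaf, and their part in the values above was not tested.

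The lines were then compared with each other, A619 minus ND101/W23 in the same fit. Of the 34 transcripts, 5 differed (2 higher and 3 lower in A619 than in ND101/W23), which is 14.7% called against 21.0% of all probes (11.8% higher and 9.17% lower). Of the 34 differences, 26 lay below 0, and their median was -0.41, beside 0.02 over all probes. Between arrays with the same replicate number, where the shared W23 sample cancels, A619 lay below ND101/W23 on all 3 for 18 transcripts (52.9%, beside 30.2% of all probes) and above it on all 3 for 7 (20.6%, beside 33.3%). Among the other leaf-specific probes 36.6% lay below on all 3. No transcript was called without replicate 1 or without replicate 2, and 6 were called without replicate 3.

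The 3 transcripts lower in A619 than in ND101/W23 were the Ycf3-like probe 20464, adenylate kinase and ferredoxin. The Ycf3-like transcript differed by -2.85, -3.03 and -1.18 in replicates 1, 2 and 3 (a 5.11-fold difference, adjusted p = 0.00617, and 0.105 and 0.0563 without replicates 1 and 2). Adenylate kinase differed by -1.68 (standard error 0.31, 3.21-fold, adjusted p = 0.0116, and 0.145 and 0.0571 without replicates 1 and 2). Ferredoxin differed by -0.58, -0.96 and -0.48 (mean -0.67, standard error 0.18, 1.59-fold, adjusted p = 0.0374, and 0.219, 0.182 and 0.0773 without replicates 1, 2 and 3).

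The 2 transcripts higher in A619 than in ND101/W23 were the antisense probe of CP47 and the probe of the psbB-psbF-petB-petD cluster. The antisense probe of CP47 differed by 0.78, 1.69 and 1.74 (mean 1.40, standard error 0.28, 2.65-fold, adjusted p = 0.015, and 0.079, 0.0723 and 0.051 without replicates 1, 2 and 3). The cluster differed by 0.97, 2.01 and 1.25 (mean 1.41, standard error 0.39, 2.66-fold, adjusted p = 0.0441, and 0.193, 0.0598 and 0.0694 without them).

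With the replicate block, 10 of the 34 transcripts differed (2 higher and 8 lower in A619) against 33.1% of all probes (18.0% higher and 15.1% lower), and the 5 gained were all lower in A619. Glutamyl-tRNA reductase differed by -2.60, -1.82 and -0.79 in replicates 1, 2 and 3 (mean -1.74, adjusted p = 0.0141 with the block and 0.273 without it). The thylakoid ascorbate peroxidase differed by -2.34, -2.78 and -1.16 (mean -2.09, adjusted p = 0.00653 and 0.0691). The asparaginyl-tRNA synthetase (mean -1.07, adjusted p = 0.0256 and 0.175), SRP54 (-1.04, 0.0497 and 0.368) and the Rubisco methyltransferase (-0.68, 0.015 and 0.31) were the others. For the Rubisco methyltransferase the 3 differences were -0.65, -0.74 and -0.66, while its ratios over W23 ran from -0.99 to 0.32 within A619.

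**Figure D3:**
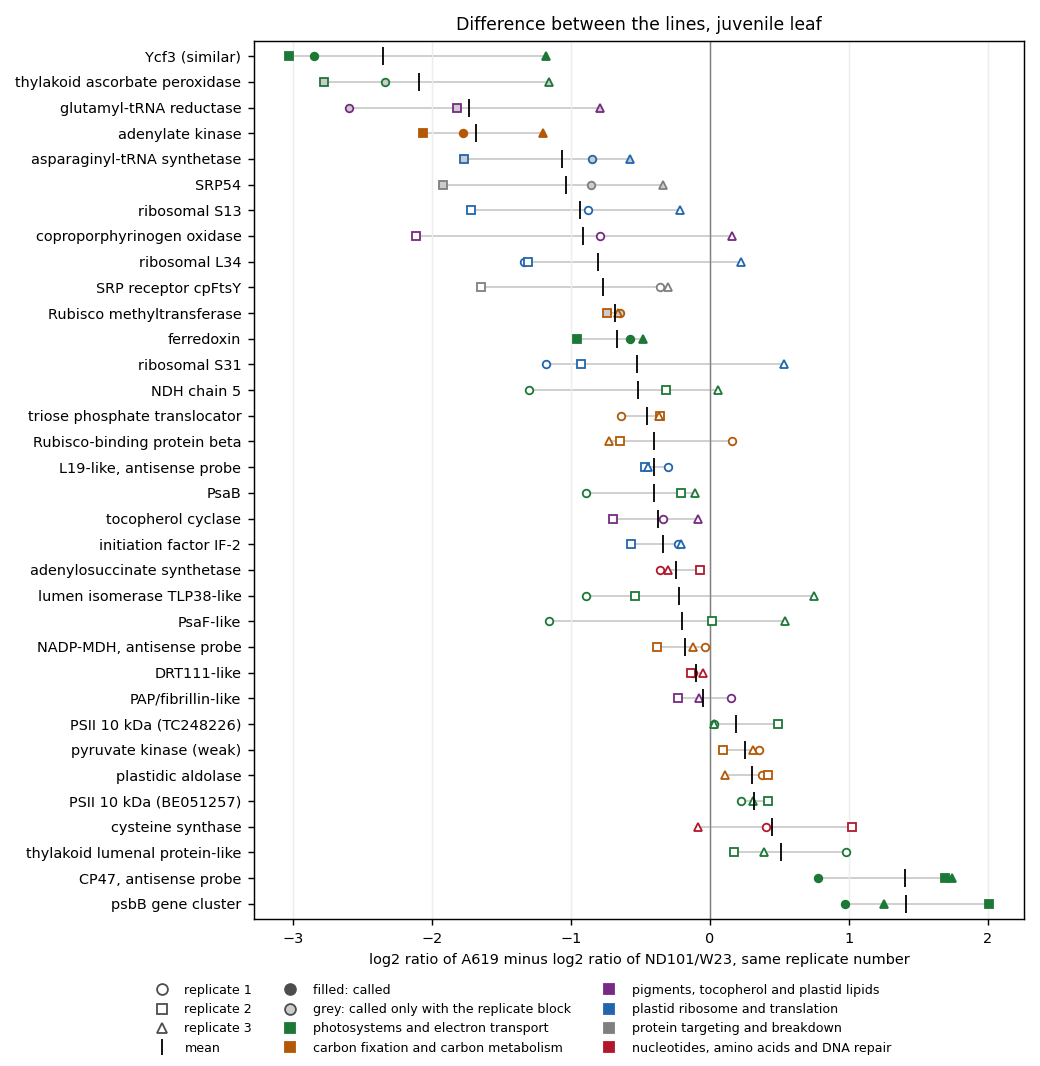
Log2 ratio of A619 minus that of ND101/W23 (x axis) for 34 transcripts, between juvenile leaf arrays with the same replicate number. Symbols are replicates, the tick is their mean, filled symbols mark the 5 transcripts called and grey ones those that the replicate block added. Of the means, 26 lie left of 0.

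Other transcripts taken by words in the product name, not all of them of photosynthesis, numbered 16 with values. Leaf-specific transcripts set aside by name made up 6. The other 10 came from the other lists of the study or carry the names carbonic anhydrase, glycine decarboxylase or PSII. In A619, 2 of the 16 rose and 7 fell, where 23.9% of all probes rose and 18.1% fell. The 6 set aside gave 5 of those that fell: the Rubisco small subunit TC268077 (log2 ratio -3.24, adjusted p = 0.000522), the NADP-malic enzyme TC270539 of the bundle sheath (-2.58, 0.000243), the photosystem II subunits CF050423 (PSII-K, -2.11, 0.0006) and TC252382 (PSII-I, -0.98, 0.0359), and the Ycf3 probe given above. The carbonic anhydrase-like TC259337 (-0.72, adjusted p = 0.0175) and the glycine decarboxylase P subunit TC260059 of photorespiration (-0.42, 0.0266) also fell. The transcripts that rose were the L3-like ribosomal protein TC270449 (0.70, adjusted p = 0.018) and the additional PsaF probe.

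In ND101/W23, 4 of the 16 fell and none rose, where 4.41% of all probes fell and 5.85% rose. They were Ycf3 (TC251425), PSII-I (-1.49, adjusted p = 0.0282), PSII-K (-1.21, 0.0257) and CP43, the other inner antenna protein of photosystem II (TC251612, -0.97, 0.0417). With the replicate block 4 rose and 5 fell there, where 13.4% of all probes rose and 10.9% fell. Between the lines, 1 was higher and 3 were lower in A619, where 11.8% of all probes were higher and 9.17% lower. CP43 was higher in A619 than in ND101/W23 by 1.44 (adjusted p = 0.0205), and the Rubisco small subunit (-2.91, 0.0083), the NADP-malic enzyme (-1.83, 0.00841) and the carbonic anhydrase-like transcript (-1.34, 0.0127) were lower. CP43 was at -0.19, 1.04 and 0.57 in A619 and at -0.77, -1.04 and -1.10 in ND101/W23, and the lines did not overlap.

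The leaf-specific list places the same 34 transcripts below detection in anthers and pollen, so that most ratios there are of weak signals. There are exceptions, since adenylosuccinate synthetase is also listed as specific to 1 mm anthers, and the text of the study names the Ycf3-like probe among transcripts that young anthers express as well. In 1 mm anthers that probe was at 0.26, -0.38 and 0.07 in A619 and at -0.87, 0.46 and -0.94 in ND101/W23, and neither mean was called. In A619 the mean ratios ran from -0.89 to 0.40 in 1 mm anthers, from -0.92 to 0.91 in 1.5 mm anthers and from -0.41 to 0.46 in pollen. In ND101/W23 they ran from -1.10 to 0.29, from -0.61 to 0.25 and from -0.29 to 0.50. In leaf the same ranges were -2.82 to 0.85 in A619 and -1.14 to 0.96 in ND101/W23.

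In 1.5 mm anthers 5 of the 34 transcripts were called in A619 (2 higher and 3 lower), against 20.3% of all probes (8.67% higher and 11.6% lower). The antisense probe of CP47 was at 0.30, 0.86 and 0.97 there, and the S31 protein at 0.75, 1.11 and 0.87. Adenylate kinase was lower (mean -0.70, adjusted p = 0.0232), as were adenylosuccinate synthetase (-0.81, 0.0231) and the Rubisco-folding chaperonin (-0.92, 0.00383). With the replicate block ferredoxin was called higher too (mean 0.37, adjusted p = 0.0478, against 0.102 without it). In 1 mm anthers 2 were called in ND101/W23, both lower, against 7.05% of all probes (4.58% lower): the S31 protein (mean -1.10, adjusted p = 0.0141) and cpFtsY (-0.79, 0.0369).

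None of the 34 transcripts was called by limma in 1 mm anthers of A619, in 1.5 mm anthers of ND101/W23 or in pollen of either line. All probes were called at 4.14%, 3.96% and, in pollen, 1.53% (A619) and 0.937% (ND101/W23). At an unadjusted p under 0.05 from limma the counts were 1, 3, 2 and 1. Of all 7900 probes, 1066 passed that threshold in 1 mm anthers of A619 and 1328 in 1.5 mm anthers of ND101/W23. For pollen the share of all probes at that threshold is not given here. Rank Products called 0 of the 34 in each of these comparisons, and its calls over all probes there are not given here. The replicate block added coproporphyrinogen oxidase in 1 mm anthers of A619 (mean -0.89, adjusted p = 0.0183, with 5.94% of all probes called). It added the TLP38-like transcript in 1.5 mm anthers of ND101/W23 (mean -0.58, adjusted p = 0.043, with 6.83% of all probes called).

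**Figure D4:**
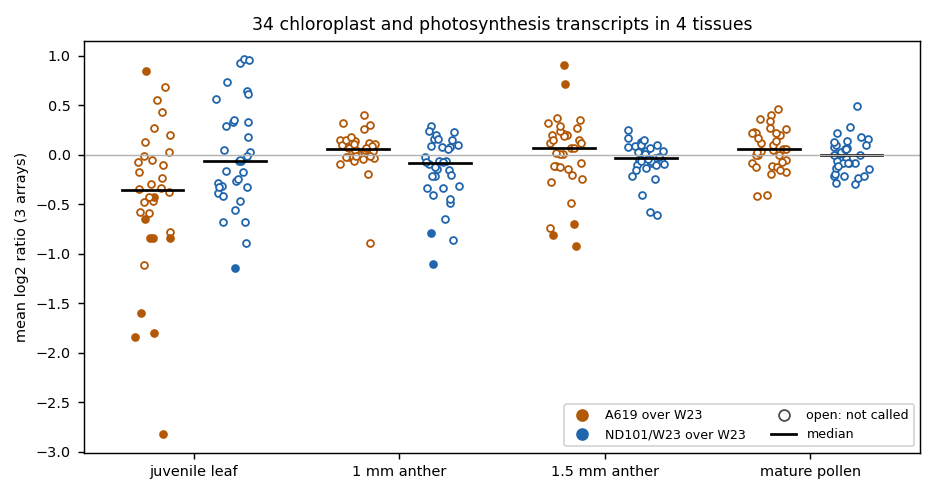
Mean log2 ratio over W23 (y axis, 3 arrays) of the 34 transcripts in each tissue, A619 left and ND101/W23 right within a tissue, with filled points for called transcripts and a line at the median. The leaf means of A619 reach -2.82, while in anthers and pollen no mean of A619 lies below -0.92.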

How the data were processed

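Labelled RNA of a line and of W23 was hybridized on 24 arrays, 3 for each of 8 comparisons. The authors took spot values with Agilent Feature Extraction, left out saturated spots and probes under thresholds set by negative controls, and normalized each array (rank-invariant probes, then loess) before giving the triplicates 1 variance. The deposited values are the resulting log2 ratios. Arrays with exchanged dyes were already turned: r over all probes was 0.108 to 0.79 in the 16 array pairs of opposite dyes and 0.224 to 0.891 in the 8 pairs of like dyes. The labels and the design scheme of the study give opposite dyes for every array. The direction, line over W23, was therefore set for ND101/W23 by array ratios that the study tabulates (36 of 36 of at least 0.5 in size had the same sign, 34 within 0.5), and rests for A619 on its arrays being turned in the same way. The same table showed that deposited row numbers lag the probe numbers of the study by 3.

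Each tissue was fitted on its 6 arrays with limma 3.58.1 in R 4.3.3, with a mean for each line, Benjamini-Hochberg adjustment over all probes and calls at an adjusted p under 0.05 with the same sign on 3 arrays (no rule on signs for A619 minus ND101/W23). The p-values rest on 1 estimate of spread for each probe, taken over the samples of both lines and moderated over all probes. In leaf the 34 transcripts spread more in A619 (median SD 0.61) than in ND101/W23 (0.34). The shared estimate is therefore not the spread of either line alone. A fit on the 3 arrays of a line alone called 5 of the 34 in A619 and 4 in ND101/W23. The samples are separate plants, except that the lines share the W23 samples. By the labels, the same replicate number in A619 and ND101/W23 marks a shared W23 sample. Deviations from the line means correlated between such leaf arrays at 0.284, 0.553 and 0.644, so that values with the number as a block stand beside results that they change. Block p-values of a line over W23 leave out the spread among the W23 samples.

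All 37 transcripts are named. Array values are given for transcripts called in leaf and for those of the photosystem and carbon roles. Transcripts and lists were chosen with earlier results of these data known. The fits were also run on simulated data with Python 3.11.15 and R. Errors were drawn independently for each array there, so that run cannot speak to shared W23 samples or dye. The platform gene table covers 204 probes and none of the 37. No value column was left out. Signal intensities, detection calls and probe sequences were not used here.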

Additional observations from a re-analysis of the deposited data

Results flagged for a closer look

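Flagged are 5 transcripts whose leaf ratio over W23 differed between A619 and ND101/W23 by a test of that difference (limma, adjusted p under 0.05 over all probes). Lower in A619 than in ND101/W23 were the Ycf3-like probe 20464 (-2.35 on the log2 scale, adjusted p = 0.00617), the adenylate kinase probe 3237 (-1.68, 0.0116) and the ferredoxin TC259449 (-0.67, 0.0374). Higher in A619 were the psbB-psbF-petB-petD cluster probe 3542 (1.41, 0.0441) and the antisense probe TC263487 of CP47 (1.40, 0.015). Called in this comparison were 5 of the 34 transcripts, against 21.0% of all probes. This test leaves out the pairing of arrays by shared W23 sample. With the replicate number as a block 10 of the 34 differed, these 5 among them, against 33.1% of all probes. That the lines did not overlap on the 3 arrays of each for these 5 is no separate support, since the same arrays gave the test that picked them. The share of all probes without overlap was not counted. None of the 5 flagged calls held without replicate 1 or without replicate 2.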

How the results depend on the processing

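The median log2 ratio of the 34 transcripts in leaf stayed below 0 in both lines under every alternative run, at -0.58 to -0.16 in A619 and -0.15 to -0.05 in ND101/W23. No call of a transcript turned its direction. The Ycf3-like probe 20464 was called in A619 under all 12 alternatives.

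Counts moved more. For A619, 10 of the 34 transcripts were called, 5 with a fit on the 3 arrays alone, 1 with Rank Products and 3 to 16 without single replicates. Over all probes the fit on the 3 arrays called 2521, Rank Products called 325 and the omissions left 1616 to 2988, in place of 3314. For ND101/W23, 1 of the 34 was called, 8 with arrays scaled to 1 median absolute deviation, 7 with all 24 arrays in the fit, 4 with 3 arrays, 6 with a dye coefficient, 0 with Rank Products and 0 to 1 without single replicates. All probes called there were 810, or 1820 with scaled arrays, 1128 with all 24 arrays, 823 with 3 arrays and 1281 with a dye coefficient. They were 196 with Rank Products and 0 to 447 without single replicates. For A619 minus ND101/W23, 5 of the 34 were called, 9 with all 24 arrays and 0 to 6 without single replicates. Of all probes 1658 were called, 1877 with all 24 arrays and 8 to 1415 without single replicates. The cause of these shifts was not tested. Omissions leave 2 arrays a line.

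With the replicate number as a block, the pairing by W23 sample gave 14 calls among the 34 in A619, 8 in ND101/W23 and 10 between the lines, and 3967, 1917 and 2613 over all probes. It took no call away, but its p-values for a line over W23 leave out the spread among the W23 samples. Median centring and the removal of antisense, weak or doubly listed transcripts kept each count within 1.5 times. With probes complete on all 24 arrays fewer probes were tested. Signal over background is not known from ratios, so that weak spots could not be told from strong ones.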
